A study of Homo sapiens with 4 samples.

Results

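Tubulin genes encode the building blocks of microtubules. The 10 genes described here were chosen by symbol: the α-tubulin genes TUBA1A, TUBA1B, TUBA1C and TUBA4A, the β-tubulin genes TUBB, TUBB2A, TUBB3, TUBB4B and TUBB6, and the γ-tubulin gene TUBG1, out of 20323 gene rows. All 10 passed the filter on low counts. The cells were a 5-fluorouracil-resistant derivative of HCT-8, an established human colorectal cancer cell line. In the METTL14 overexpression group (2 libraries) they carried a plasmid for METTL14, the partner of METTL3 in the complex that writes N6-methyladenosine on mRNA, and in the control group (2 libraries) a negative control plasmid. Cycloheximide, which stops ribosomes during elongation, was present at 100 ug/mL in both groups, and poly(A) RNA was sequenced. The comparison therefore concerns mRNA levels in cells whose translation was blocked, in a single cell line and after plasmid transfection, and cells without cycloheximide were not analysed here.

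An α- and a β-tubulin fold with the help of prefoldin, the chaperonin CCT and the tubulin cofactors, pair into a dimer, and polymerise, while γ-tubulin sits in ring complexes that start new microtubules. The amount of α- and β-tubulin mRNA is autoregulated: when free dimers are in excess, the factor TTC5 recognises the first residues of tubulin as they leave the ribosome, and through SCAPER it brings the CCR4-NOT deadenylase, which degrades the mRNA being translated. The process needs ongoing translation and acts on α- and β-tubulin, while γ-tubulin is not known as its target. Microtubules are also the target of the taxane and vinca drugs used against tumours, and TUBB3 is often studied in relation to resistance to them.

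The start of the coding sequence is shown because it encodes the residues that autoregulation reads. The first 30 coding bases of the principal transcript (GENCODE release 29, GRCh38) are given 5′ to 3′, with the first 4 codons in capitals.
TUBA1A, TUBA1B and TUBA1C: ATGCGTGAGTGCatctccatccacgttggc
TUBA4A: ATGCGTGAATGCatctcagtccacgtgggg
TUBB: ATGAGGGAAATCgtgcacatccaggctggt
TUBB2A: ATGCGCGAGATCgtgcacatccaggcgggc
TUBB3: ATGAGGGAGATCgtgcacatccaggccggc
TUBB4B: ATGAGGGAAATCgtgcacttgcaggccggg
TUBB6: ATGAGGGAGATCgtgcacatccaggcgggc
TUBG1: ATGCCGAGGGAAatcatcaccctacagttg
The TUBA1 genes were identical over all 30 bases. In TUBG1 the codon CCG followed ATG, and the next codons, AGG GAA ATC, were those that follow ATG in TUBB and TUBB4B. Over the whole coding sequence the TUBA1 genes were 95.9 to 97.2% identical to each other, TUBA4A was 84.4 to 85.7% identical to them, and the β genes were 81 to 87.8% identical among themselves. TUBG1 was 51.5 to 55.6% identical to the other 9.

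Such likeness bears on how reads are assigned, because expected counts divide a read that fits several genes by estimate. TUBA1A and TUBA1B differed at 38 of 1353 coding bases, with a longest identical run of 221 bases. Of all 100-base words in the TUBA1B transcript, 32.1% also occurred, on either strand, in another gene of the files, against 26.6% for TUBA1A and 11.5% for TUBA1C. The share was 54.4% for TUBB2A, nearly all of it with TUBB2B, and 27.4% for TUBA4A, mostly with the overlapping gene STK16. It was 89% for TUBB3, because an MC1R-TUBB3 readthrough gene contains its exons, and 14.9% for TUBG1, which shares them with TUBG2. It was 4.49% for TUBB4B, while for TUBB and TUBB6 it was 0%. Counting every annotated gene, also those outside the files, the share was 71.1% for TUBA1B and 20.4% for TUBB, mostly with antisense genes (65.4% and 17.1%). Whether reads were counted by strand is not given in the labels, so reads of genes overlapping on opposite strands cannot be told apart, and the values of the other members are less certain than those of TUBB4B and TUBB6.

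In GENCODE on GRCh38 all 10 genes are protein-coding. The TUBA1 genes neighbour each other on chromosome 12: TUBA1B (ENSG00000123416, chr12:49127782-49131397, minus strand), TUBA1A (ENSG00000167552, chr12:49184796-49189324, minus strand) and TUBA1C (ENSG00000167553, chr12:49188736-49274603, plus strand), whose annotated spans overlap for the last pair. TUBA4A (ENSG00000127824) lies at chr2:219249711-219278170 on the minus strand. TUBB (ENSG00000196230, chr6:30720201-30725426, plus strand) and TUBB2A (ENSG00000137267, chr6:3153669-3157526, minus strand) are on chromosome 6. TUBB3 (ENSG00000258947) lies at chr16:89921392-89938761, TUBB4B (ENSG00000188229) at chr9:137241213-137243707, TUBB6 (ENSG00000176014) at chr18:12307669-12344320 and TUBG1 (ENSG00000131462) at chr17:42609676-42615234, all on the plus strand.

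Total counts were 19206661 and 19829158 in the METTL14 libraries and 20161082 and 19247784 in the control libraries, and each member had between 1708 and 86504 counts in a library. The METTL14 transcript had 7593 and 8516 counts with its plasmid, against 472 and 598 counts in the controls (14.7-fold higher with an edgeR adjusted p of 7.33e-05). Of 10 colorectal epithelial markers, 9 in the METTL14 group and 8 in the control group averaged at least 1 CPM (counts scaled to a common library size), whereas CEACAM5 was at or near 0 in both groups. Of the 9 tested markers 3 were higher with METTL14 and 3 lower, against 27.0% and 28.1% of all tested genes. CDH17, CDH1 and CDX2 were higher (log2 fold changes 1.87, 0.74 and 0.44), and KRT8, KRT18 and KRT19 were lower (-0.9, -0.92 and -0.39). EPCAM (-0.01), VIL1 (0.25) and KRT20 (1.19) did not pass the test. The calls of CDX2 and KRT19 were lost on leaving out either METTL14 library. The median log2 fold change of the tested markers was 0.25. Their summed level, most of it KRT8 and KRT18, was 9013 to 9231 CPM in the METTL14 libraries and 11814 to 18139.9 CPM in the control libraries. Of 13 neuronal markers, relevant because TUBB3 and TUBA1A are abundant in neurons, only MAP2 reached that level, and STMN2, ELAVL4, GAP43 and DCX had no count in any library. The summed level of the neuronal markers was 10.5 CPM in each METTL14 library, against 3.69 to 4.46 CPM in the control libraries. Fibroblast, leukocyte and endothelial markers summed to at most 20.2 CPM per list in any library.

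Most tubulin mRNAs were lower with METTL14. Of the 10 genes 7 fell, 3 of 4 α genes and 4 of 5 β genes, none rose, and TUBA1A, TUBB2A and TUBG1 did not pass the test (quasi-likelihood test of edgeR, p adjusted by Benjamini-Hochberg over 12700 genes, threshold 0.05). The falls ranged from 1.71-fold for TUBB6 to 3.35-fold for TUBA1B. In the background 28.1% of all tested genes were lower and 27.0% higher, 55.1% in all. Among the 4376 genes with a mean of at least 50 CPM, the range in which all members lay, 34.2% were lower and 29.0% higher. The median log2 fold change of the members was -0.8, against -0.01 over all tested genes and -0.06 over those of at least 50 CPM. In bulk samples, fewer cells of a type and less RNA per cell cannot be told apart. CPM are shares of each library, so a lower value is lower relative to the other mRNAs.

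**Figure D1:**
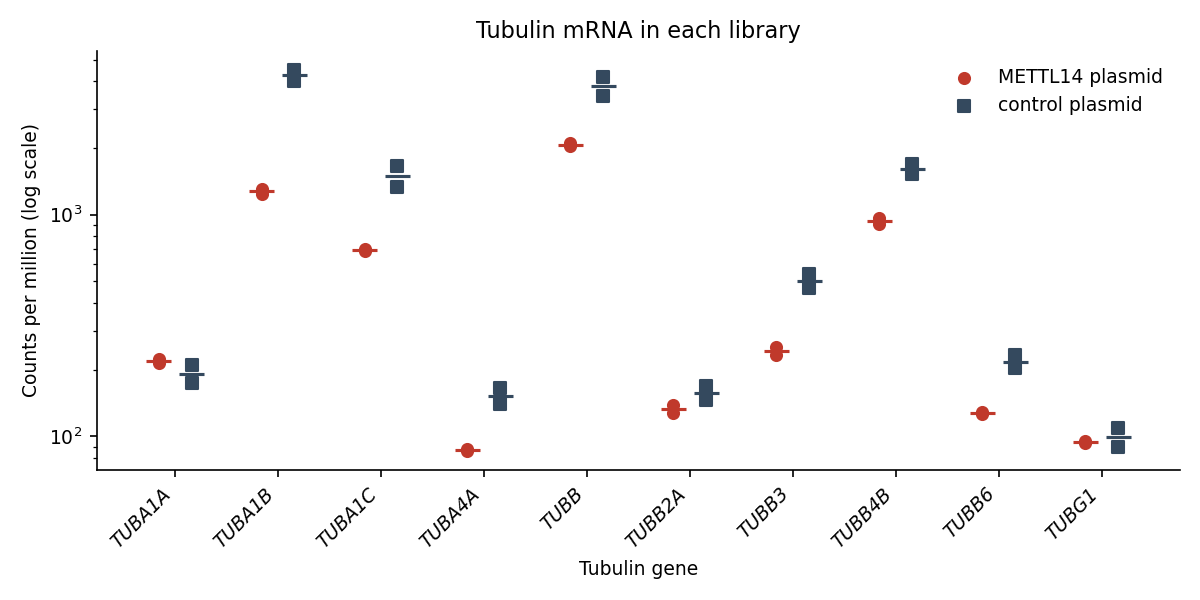
Level of each tubulin gene in each library, in CPM on a log axis, with METTL14 overexpression (2 libraries) left of control (2 libraries) and a bar at each group mean. The METTL14 libraries lie below both control libraries for 8 of the 10 genes, above them for TUBA1A, and overlap them for TUBG1.

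TUBA1B, the broadly used α-tubulin of dividing cells, had the largest fall. Its level was 1299.5 and 1245 CPM in the METTL14 libraries and 4499.7 and 4024 CPM in the control libraries, with means of 1272 ± 38.3 CPM with METTL14 and 4262 ± 336 CPM in the controls (SD, n = 2 each). Both METTL14 libraries were far below both controls, and the gap was several times the distance between the controls. The log2 fold change was -1.74 (SE 0.104, edgeR adjusted p = 9.20e-05), lower than that of all but 2.05% of the tested genes.

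TUBA1C, another α-tubulin expressed in most tissues, was at 697 and 684 CPM in the METTL14 libraries and at 1664 and 1335 CPM in the control libraries. The METTL14 libraries nearly coincided while the controls stood apart from each other, without reaching the METTL14 level. The fall was 2.17-fold (log2 fold change -1.12, SE 0.126, edgeR adjusted p = 0.000411). TUBA4A, an α-tubulin encoded without the terminal tyrosine of most other α-tubulins, was at 87.7 and 86.2 CPM in the METTL14 libraries and at 165 and 140.0 CPM in the control libraries. Its groups did not overlap either, and it fell 1.75-fold (log2 fold change -0.81, SE 0.113, edgeR adjusted p = 0.000961).

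TUBA1A, the main α-tubulin of developing neurons, stood apart from its neighbours and did not pass the test. It was at 224 and 215 CPM in the METTL14 libraries and at 174 and 209.6 CPM in the control libraries. The second control lay close to the METTL14 libraries and the first below them. The log2 fold change was 0.19 (SE 0.116, edgeR adjusted p = 0.198). The value depends on the control used: it was 0.33 without control replicate 2 and 0.07 without control replicate 1. In the fit without control replicate 2 the gene was called higher (edgeR adjusted p = 2.31e-06). A fit with 1 control library takes its spread from the METTL14 pair alone, which was tighter than the control pair (chi-square per degree of freedom 3.32 against 29.18), so calls gained in such fits are not read as changes.

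Of the β genes, TUBB, the class I β-tubulin present in nearly all cells, was the most abundant in CPM. It was at 2096 and 2036 CPM in the METTL14 libraries and at 4165 and 3446 CPM in the control libraries. Both METTL14 libraries lay below both controls, and the fall was 1.84-fold (log2 fold change -0.88, SE 0.116, edgeR adjusted p = 0.000768). TUBB4B, the class IVb β-tubulin of many tissues and of cilia, was at 965 and 909 CPM in the METTL14 libraries and at 1692 and 1526 CPM in the control libraries. It too was lower in both METTL14 libraries, by 1.72-fold (log2 fold change -0.78, SE 0.103, edgeR adjusted p = 0.000758).

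TUBB3, the class III β-tubulin of neurons that many tumours also express, was at 254 and 234 CPM in the METTL14 libraries and at 541 and 467 CPM in the control libraries. The groups were well apart, and TUBB3 had the largest fall among the β genes, 2.07-fold (log2 fold change -1.05, SE 0.113, edgeR adjusted p = 0.00035). Among the 2 neuronal markers that could be tested, MAP2 was higher with METTL14 (9.57 ± 0.02 CPM, against 2.84 ± 0.557 CPM in the controls, SD, n = 2 each). SYP was lower, with 4 and 4 counts in the METTL14 libraries and 12 and 16 counts in the control libraries (log2 fold change -1.81, edgeR adjusted p = 0.0283), a call lost with DESeq2, with no filter on low counts, and on leaving out either METTL14 library or control replicate 2. The part of these markers in the TUBB3 result was not tested. TUBB6, the class V β-tubulin, was at 129 and 126 CPM in the METTL14 libraries and at 232 and 203 CPM in the control libraries. It was again lower in both METTL14 libraries (log2 fold change -0.77, SE 0.106, edgeR adjusted p = 0.000927).

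TUBB2A, a β-tubulin best known from brain, was at 138 and 127 CPM in the METTL14 libraries and at 169.6 and 146 CPM in the control libraries. Both METTL14 libraries were below both controls, but the gap between the nearest libraries was smaller than the distance between the controls, and the gene did not pass the test (log2 fold change -0.26, SE 0.113, edgeR adjusted p = 0.0885). The log2 fold change was -0.36 without control replicate 2, where the gene was called lower on the spread of the METTL14 pair alone (edgeR adjusted p = 2.10e-07), and -0.15 without control replicate 1. TUBB2B, with which it shares most of its sequence, stood at 2.92 ± 0.451 CPM in the METTL14 group and 4.27 ± 0.223 CPM in the control group (SD, n = 2 each) and did not pass the test either (log2 fold change -0.54, edgeR adjusted p = 0.106).

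TUBG1, the γ-tubulin of the nucleating ring complex, was at 95.2 and 93.5 CPM in the METTL14 libraries and at 109.6 and 89.8 CPM in the control libraries. The METTL14 libraries lay between the controls, which makes it the only member whose groups overlapped. The log2 fold change was -0.08 (SE 0.12, edgeR adjusted p = 0.603). Its sign depended on the control: the log2 fold change was -0.22 without control replicate 2 and 0.08 without control replicate 1. On the spread of the METTL14 pair alone, the first of these was called lower (edgeR adjusted p = 0.00487) and the second was not called (edgeR adjusted p = 0.384).

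Groups did not overlap for 9 of the 10 genes, and 8 genes were below both controls in both METTL14 libraries. Over all tested genes these shares were 79.8% and 40.0%. Control replicate 1 was above control replicate 2 for 9 of the 10 genes, all but TUBA1A. The share of all tested genes with this order was not computed, so the order is not read as particular to tubulin. When each library was left out in turn, the 7 lower genes were called lower in 28 of 28 fits, in each of which the spread came only from the group with 2 libraries and the lone library was assumed to vary like it. In edgeR's test against a 1.5-fold change 4 members were lower, TUBA1B, TUBA1C, TUBB and TUBB3, beside 10.7% of all genes. TUBA4A (adjusted p = 0.0517), TUBB4B (adjusted p = 0.06) and TUBB6 (adjusted p = 0.0735) missed it in edgeR. No exact permutation test of 2 against 2 libraries can give a p below 0.333, so each adjusted p rests on edgeR's spread shared over genes. The libraries are described as independent repeats, and the p-values measure only the spread between them, part of which may be technical.

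**Figure D2:**
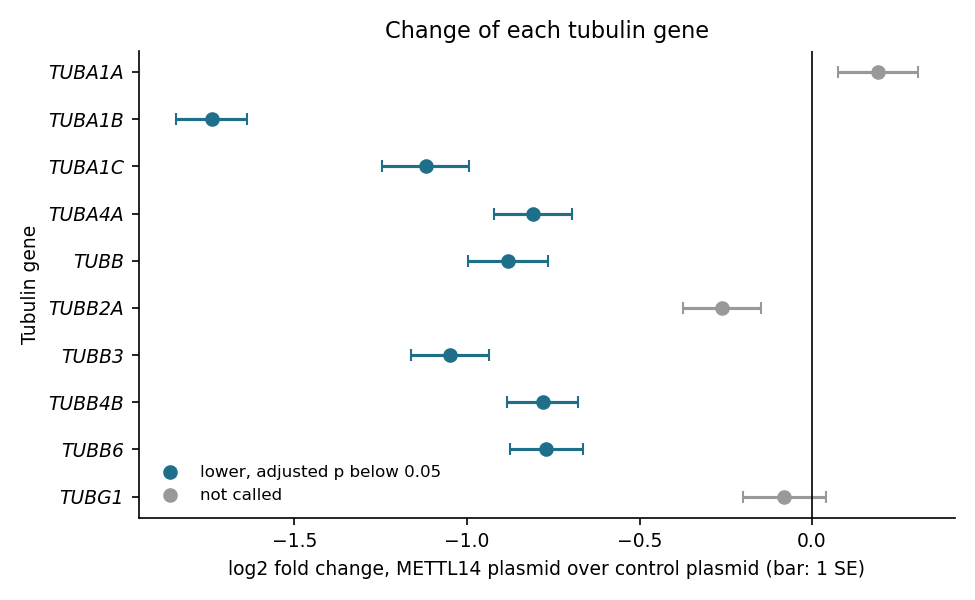
Log2 fold change of each tubulin gene (METTL14 overexpression over control, with bars of 1 SE of the edgeR fit), with a vertical line at no change. TUBA1B lies lowest at -1.74, the other called genes lie between -1.12 and -0.77, and TUBA1A, TUBB2A and TUBG1 lie nearest to 0.

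Levels of different genes can be compared only per length, here as CPM per kilobase of the principal transcript. On this scale TUBA1B was at 782 ± 23.6 and TUBB at 774 ± 15.7 CPM per kilobase in the METTL14 group, and the libraries of these genes overlapped. In the control group TUBA1B was at 2619 ± 207 and TUBB at 1425 ± 190.5 CPM per kilobase, without overlap. TUBA1B thus stood clear of every other member in the control libraries and level with TUBB in the METTL14 libraries. Next came TUBB4B, TUBA1C and TUBB3, in this order in both groups. They were at 572 ± 24, 230.1 ± 2.95 and 138 ± 8.26 CPM per kilobase in the METTL14 group, and at 983 ± 71.8, 499.7 ± 77.4 and 285 ± 29.6 CPM per kilobase in the control group (SD, n = 2 each). Below these, TUBA1A ranked above TUBB2A and TUBB6 with METTL14 (115 ± 3.08, 82.8 ± 4.84 and 61.7 ± 1.04 CPM per kilobase). In the control group these 3 genes averaged 100.3 ± 13, 99.1 ± 10.3 and 105 ± 9.92 CPM per kilobase, with overlapping libraries. TUBA4A was last in the METTL14 group (40.2 ± 0.516 CPM per kilobase), after TUBG1 (58.6 ± 0.759), and in the control group TUBA4A (70.6 ± 8.23) and TUBG1 (61.9 ± 8.72) overlapped.

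Summed over the 4 α genes, α-tubulin mRNA was at 2308 and 2231 CPM in the METTL14 libraries and at 6503 and 5709 CPM in the control libraries, 2.69-fold lower by the ratio of means. Summed over the 5 β genes, β-tubulin mRNA was at 3581 and 3432 CPM in the METTL14 libraries and at 6799.8 and 5788 CPM in the control libraries, 1.79-fold lower. The α sum was therefore lower by more than the β sum, and neither overlapped between groups. The β sum was 1.55 and 1.54 times the α sum in the METTL14 libraries and 1.05 and 1.01 times in the control libraries. Divided by transcript length the same ratio was 1.4 and 1.39 in the METTL14 libraries against 0.894 and 0.866 in the control libraries, and divided by the union of exons it was 2.08 and 2.06 against 1.36 and 1.32. Whether β or α mRNA was the more abundant in the controls thus depended on the length used, while the ratio was higher with METTL14 on each scale. Each of these contrasts gave p = 0.333 in the two-sided exact permutation test, the smallest value it can give here. Together the α and β genes took 0.597 and 0.578% of all counts in the METTL14 libraries and 1.27 and 1.16% in the control libraries.

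**Figure D3:**
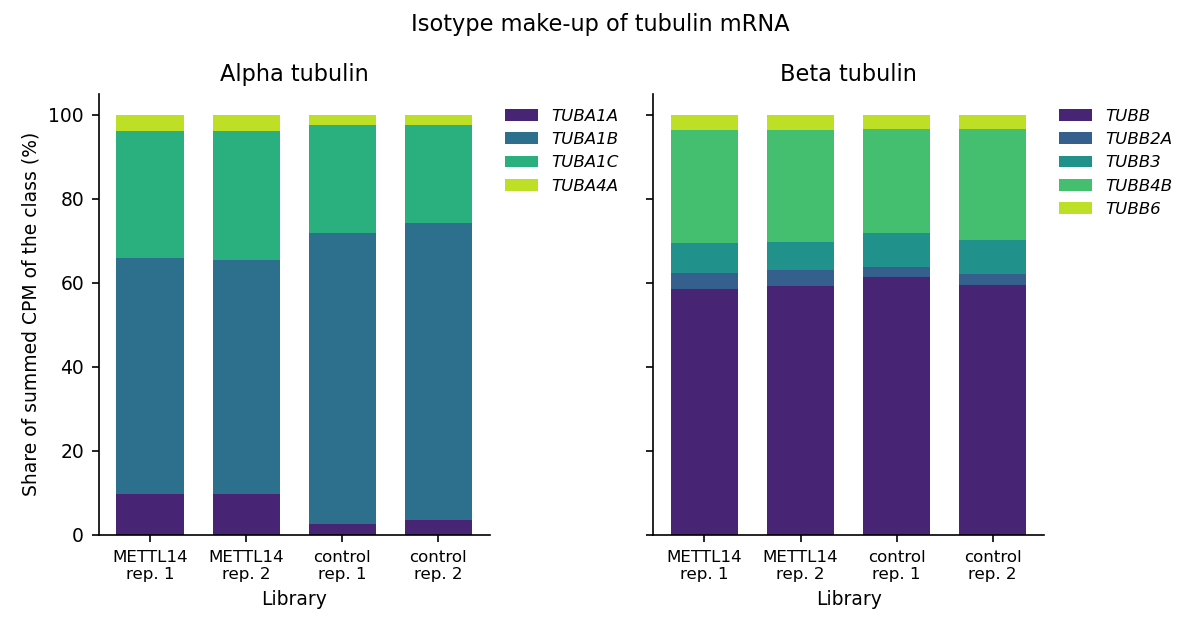
Share of each α gene in the summed α-tubulin CPM and of each β gene in the summed β-tubulin CPM, in percent, for each METTL14 overexpression library (left) and each control library (right). TUBA1B makes up 56.3 and 55.8% of the α sum with METTL14 and 69.2 and 70.5% in the controls, while the mean share of any gene in the β sum differs by less than 2 percentage points.

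The make-up of the α pool differed between the groups more than that of the β pool. TUBA1B made up 56.3 and 55.8% of the α sum in the METTL14 libraries and 69.2 and 70.5% in the control libraries, a mean difference of -13.8 percentage points. TUBA1A made up 9.69 and 9.65% in the METTL14 libraries and 2.68 and 3.67% in the control libraries, and TUBA1C 30.2 and 30.7% against 25.6 and 23.4%. TUBA1B was thus a smaller and its neighbours a larger part of the α mRNA with METTL14. Set against TUBA1B directly, TUBA1A was at 17.2 and 17.3% of its CPM in the METTL14 libraries and at 3.88 and 5.21% in the control libraries. Of the 100-base words of TUBA1A, 15.5% also occur in TUBA1B, and the division of reads between these genes was not tested. In the β pool TUBB held 58.5 and 59.3% in the METTL14 libraries and 61.3 and 59.5% in the control libraries, and TUBB4B 26.9 and 26.5% against 24.9 and 26.4%. The largest relative difference among β genes was in TUBB2A, with 3.84 and 3.69% in the METTL14 libraries and 2.49 and 2.53% in the control libraries. In CPM none of these shares overlapped between groups, and each had the same exact permutation p of 0.333. Divided by the union of exons, the TUBB4B share did overlap, with 36.6 and 36.1% in the METTL14 libraries and 34.6 and 36.4% in the control libraries.

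GGACT, the most common form of the sequence in which the METTL3-METTL14 complex methylates adenosine, was counted on the sense strand of each principal transcript. Of the 10 members 8 held it at least 1 time, against 91.7% of the 12540 tested genes with a transcript. TUBA1A and TUBA1B held none, TUBB, TUBB2A and TUBB3 held 1, TUBB4B, TUBB6 and TUBG1 held 3, and TUBA1C and TUBA4A held 4. Per kilobase of transcript, TUBA1C, TUBA4A, TUBB4B, TUBB6 and TUBG1 held 1.33 to 1.86, against a median of 0.952 over the tested genes. TUBB, TUBB2A and TUBB3 were below that median, at 0.375 to 0.627 per kilobase. Other forms of the sequence were not counted, and a link between GGACT and the changes was not tested. A match of these letters is not a methylated site, and methylation itself was not measured here.

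Of 12 other tubulin genes, 6 were abundant enough to be tested, and their median log2 fold change was 0.07. Of these 6 genes 2 were higher and 0 lower (background 27.0% and 28.1%). The count of higher genes is near its background. TUBG2, the second γ-tubulin gene, rose to 22.8 ± 0.417 CPM in the METTL14 group, against 12.8 ± 2.85 CPM in the control group (SD, n = 2 each, log2 fold change 0.83, edgeR adjusted p = 0.00549). It shares sequence with TUBG1, and the call of TUBG2 was lost in the test against a change of 1.5-fold. TUBAL3 rose as well but averaged 1.16 CPM with METTL14 and 0.284 CPM in the controls, and its call was lost on leaving out either METTL14 library. The other 4 tested tubulin genes, TUBA8, TUBB2B, TUBD1 and TUBE1, did not pass the test.

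Of 13 genes of tubulin autoregulation, 3 rose and 4 fell, with a median log2 fold change of 0.11, which is near the background of 27.0% higher and 28.1% lower. TTC5, which recognises nascent tubulin, fell to 14 ± 0.638 CPM with METTL14, against 22.5 ± 0.653 CPM in the controls (SD, n = 2 each, log2 fold change -0.68, SE 0.129, edgeR adjusted p = 0.0036). SCAPER, the adaptor to the deadenylase, was at 6.91 ± 1.2 CPM in the METTL14 group and 7.76 ± 3.18 CPM in the control group and did not pass the test (log2 fold change -0.17, edgeR adjusted p = 0.658). Of the CCR4-NOT genes, CNOT10 (log2 fold change -0.73) and CNOT9 (-0.69) fell, while the associated protein TNKS1BP1 rose (0.68). The deadenylase CNOT8 (0.58, edgeR adjusted p = 0.00527) and the scaffold CNOT1 (0.33) rose, and the deadenylase CNOT7 fell (-0.29, edgeR adjusted p = 0.0385). None of these 7 calls held against a change of 1.5-fold, and those of CNOT1 and CNOT7 were lost on leaving out either METTL14 library.

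All 8 subunits of the chaperonin CCT, which folds tubulin, fell with METTL14, with a median log2 fold change of -0.99. In the background 28.1% of all tested genes were lower, and 34.2% of those with a mean of at least 50 CPM. In the test against a change of 1.5-fold 7 subunits were lower, all but CCT4, beside 10.7% of all genes. CCT2 was at 271 ± 10.3 CPM in the METTL14 group and 614 ± 70.0 CPM in the control group (log2 fold change -1.18), and CCT8 (log2 fold change -1.14), CCT5 (-1.12) and CCT6A (-0.99) fell alike. All 8 were lower in each fit that left out a library. Of 13 tubulin cofactor and prefoldin genes 9 fell and 2 rose (background 28.1% and 27.0%), with a median log2 fold change of -0.48. Among the prefoldin subunits, PFDN6 (log2 fold change -1.04) and VBP1 (-0.83) fell. Of the cofactors, TBCB, which acts on α-tubulin, fell (log2 fold change -0.68, edgeR adjusted p = 0.00116), as did TBCA, which binds β-tubulin (-0.62, edgeR adjusted p = 0.0104), and TBCD and TBCE, which assemble the dimer (-0.48 for each). TBCC did not pass the test (log2 fold change -0.38, edgeR adjusted p = 0.0744). ARL2, the small GTPase that works with TBCD, rose (log2 fold change 0.89, edgeR adjusted p = 0.00165), as did TBCEL (0.61). The calls of TBCD and TBCE were lost on leaving out either METTL14 library and that of TBCA without METTL14 replicate 1, and in each of these fits 4 genes of this list were lower.

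TUBG1 did not pass the test, while most genes of its complex did. Of 12 genes of the γ-tubulin ring complex and its anchors 9 fell and 1 rose (background 28.1% and 27.0%), with a median log2 fold change of -0.74. TUBGCP2 and TUBGCP3, the core partners of γ-tubulin, fell (log2 fold changes -0.51 and -0.67), as did TUBGCP5 (-0.97) and the small subunits MZT1 (-0.99) and MZT2B (-0.78). TUBGCP6 rose (log2 fold change 0.53, edgeR adjusted p = 0.00654), and TUBGCP4 did not pass the test (0.13, edgeR adjusted p = 0.307). NEDD1 (log2 fold change -0.83) and pericentrin, PCNT (-0.69), which hold the complex at the centrosome, fell too. The calls of TUBGCP2 and TUBGCP6 were lost without METTL14 replicate 1.

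**Figure D4:**
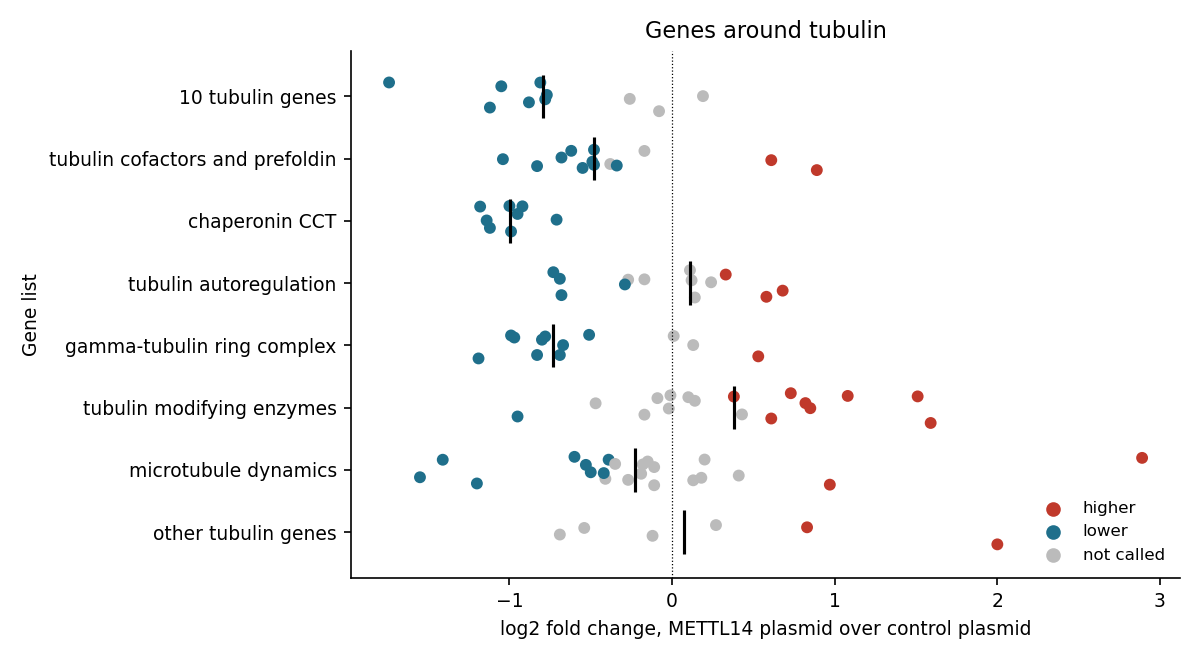
Log2 fold change (METTL14 overexpression over control) of each tested gene in the tubulin genes and the lists of related genes, 1 point a gene. The median of each list is a bar, and a dotted line marks no change. All 8 chaperonin CCT genes lie below 0, with a median of -0.99, while the tubulin modifying enzymes have a median of 0.38.

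Of the enzymes that modify tubulin after translation more were higher than lower: of 17 tested genes 8 rose and 1 fell (background 27.0% and 28.1%), with a median log2 fold change of 0.38. HDAC6, which deacetylates α-tubulin, was at 96.1 ± 0.808 CPM in the METTL14 group and 53.3 ± 2.2 CPM in the control group (SD, n = 2 each, log2 fold change 0.85, edgeR adjusted p = 0.000421). TTLL3, a glycylase (log2 fold change 1.08), TTLL1, a glutamylase (1.51), and AGBL5, a carboxypeptidase that removes glutamates (0.73), rose as well, so that writers and erasers of these marks were both among the higher genes. Leaving out a METTL14 library lowered the number of higher genes to 5 (without replicate 1) and 4 (without replicate 2).

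Of 22 genes of microtubule dynamics 8 fell and 2 rose, with a median log2 fold change of -0.23. The count of lower genes is near the background of 28.1% over all genes and 34.2% among those of at least 50 CPM. CLIP2, a linker protein of growing microtubule ends, rose to 822 ± 21.4 CPM with METTL14, against 111 ± 13.7 CPM in the controls (SD, n = 2 each, 7.39-fold, log2 fold change 2.89, SE 0.122, edgeR adjusted p = 7.33e-05). MAPRE3, an end-binding protein, also rose (log2 fold change 0.97). STMN1, stathmin, which sequesters tubulin dimers, was at 364 ± 10.1 CPM in the METTL14 group and 834 ± 39.1 CPM in the control group (log2 fold change -1.2, edgeR adjusted p = 0.000155), and FIGNL1, a fidgetin-like AAA protein, fell (-1.55). Leaving out a METTL14 library lowered the number of lower genes in this list to 3 (without replicate 1) and 5 (without replicate 2).

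The summed α and β profile was also set beside single genes. Among 4366 genes of at least 50 CPM, PRDX2, SFPQ, MTHFD1, TRIR and TRIP6 lay nearest to it, with root mean square distances of 0.0139 to 0.0206 in log2 CPM centred on each gene's mean, over 4 libraries. PRDX2 was at 196 and 185 CPM in the METTL14 libraries and at 439 and 384 CPM in the control libraries, and like the tubulin sums it was lower in both METTL14 libraries and somewhat higher in control replicate 1 than in replicate 2. Since these genes were picked for this likeness, their differences are given as a description.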

How the data were processed

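Poly(A) RNA was sequenced from 4 libraries, 2 with METTL14 overexpression and 2 controls, grouped by the labels. The authors deposited expected counts for each gene, with no normalization. The submitters' processing notes name fastp, Bowtie2, HISAT2, StringTie and RSEM without versions, and the build hg18. Most gene identifiers (20171 of 20323) are in GENCODE release 29 on GRCh38, so the build behind the counts is uncertain, and that annotation was used only for positions, transcript lengths and sequences.

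After rounding, genes were filtered with filterByExpr (minimum count 10), scaled by TMM and tested in edgeR 4.0.16 under R 4.3.3 (quasi-likelihood, robust, no covariate). Benjamini-Hochberg adjustment covered 12700 genes, with a threshold of 0.05. An SE is |log2 fold change| over the root of F, which is approximate. Common biological variation was 10.8% as a coefficient of variation. An adjusted p here is from edgeR unless another tool is named. CPM are TMM-scaled. Depth ranged from 19206661 to 20161082 counts per library. Rows with no symbol (102) held at most 0.0366% of counts. TUBB3 had a second row, for a readthrough gene, and the row with the highest mean count was used. The METTL14 libraries differed from each other by more than sampling noise (chi-square per degree of freedom 3.32, controls 29.18).

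The members, gene lists and tests were chosen with earlier results of these data known. All 10 members are named. In each list up to 4 genes with the smallest p were named, plus TTC5, SCAPER, TBCA to TBCE and TUBGCP2 to TUBGCP6, and genes outside this rule were named after their values were seen: TUBA8, TUBB2B, TUBD1, TUBE1, CNOT1, CNOT7, CNOT8, TBCEL, MAP2 and other markers. The procedure was tested on simulated counts. Alternatives were DESeq2 1.42.0, RLE size factors, library totals alone, limma-voom (limma 3.58.1), other filters on low counts, a fit without the robust step, the replicate number as a block, a test against 1.5-fold and leaving out each library. Added after seeing the data were leaving out mitochondrial genes and values per GENCODE length. Python 3.11.15, numpy 2.4.6, pandas 2.3.3, scipy 1.17.1 and matplotlib 3.10.9 were used for the rest.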

Additional observations from a re-analysis of the deposited data

Results flagged for a closer look

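A second row with the symbol TUBB3, for the MC1R-TUBB3 readthrough gene (ENSG00000198211), was not used for the members and holds a signal above the control level. Its expected counts were 39.0 and 56.86 in the METTL14 libraries and 12.35 and 0.0 in the control libraries, a log2 fold change of 2.93 (SE 0.829, edgeR adjusted p = 0.0197). This equals 0.788 and 1.2% of the TUBB3 count in the METTL14 libraries and 0.119 and 0% in the control libraries. The counts are small, 89% of the 100-base words of TUBB3 also occur in the readthrough gene, and the division of reads between these rows was not tested.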

How the results depend on the processing

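Over 14 alternatives the log2 fold changes of the 7 lower members kept their sign, from -1.83 to -1.66 for TUBA1B to -0.87 to -0.67 for TUBB6, and the only alternative that took a call from any of them was the test against 1.5-fold (TUBA4A, TUBB4B and TUBB6). TUBG1 ranged from -0.22 without control replicate 2 to 0.08 without control replicate 1, where its sign changed. That stricter test called 1416 genes higher and 1357 lower, 4 members lower, 1 other tubulin gene higher, 0 autoregulation genes in either direction, 1 cofactor or prefoldin gene higher and 2 lower, 0 ring complex genes higher and 1 lower, 3 modifying enzymes higher and 0 lower, and 3 dynamics genes lower. With a filter of 5 CPM in 2 libraries 1 other tubulin gene was higher. Leaving out each library in turn gave 2307 to 4575 lower genes, 0 to 1 members higher, 1 to 3 other tubulin genes higher and 0 to 1 lower, 2 to 5 autoregulation genes higher, 4 to 10 cofactor or prefoldin genes lower, 0 to 1 ring complex genes higher, 4 to 9 modifying enzymes higher and 0 to 1 lower, 2 to 6 dynamics genes higher and 3 to 11 lower, and a log2 ratio of -0.96 to -0.72 for the β sum. Apart from fewer libraries, the cause was not tested. The files give no gene length, so the planned division by it used GENCODE lengths instead, chosen after seeing the data. With the principal transcript, the log2 ratio of the β to α sum was 0.67 (0.59 in CPM), and the differences in share were -12.6 percentage points for TUBA1B, 4.58 for TUBA1C, 1.66 for TUBB2A and -1.38 for TUBB3. With the union of exons the ratio was 0.63 and the differences were 7.34 for TUBA1A, 2.01 for TUBB2A, -0.782 for TUBB3 and 0.0797 for TUBB6. With the replicate block 8 members were lower, the added one being TUBB2A (adjusted p = 0.0453 in edgeR). Deviations of same-numbered libraries correlated at 0.04. With 2 libraries a group this cannot decide whether the replicate numbers pair the samples. The median log2 fold change of all tested genes stayed between -0.02 and 0.04 in the main fit and under each alternative. Depth did not limit the members, at 1708 counts or more in a library.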
